A study of Mus musculus with 24 samples.

Results

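The *Zic* genes are a small family, and 4 of its members, *Zic1*, *Zic2*, *Zic4* and *Zic5*, were followed here across calibrated RNA-seq (cRNA-seq) of mouse embryonic stem cells (ESCs). They were taken by symbol from a gene table of 20633 transcripts and 19409 symbols, in which each had 1 transcript, and they were chosen because they lie in pairs at 2 loci. The 2 ESC lines were derived from E14 cells, each as 1 clone, and both carry Rosa26::ERT2-Cre, a Cre recombinase that works only when 4-hydroxytamoxifen (OHT) is present. PRC1CKO cells (clone B9) are Ring1a-/-; Ring1bfl/fl. Their OHT treatment removes the first coding exon of *Ring1b*. PRC1CPM cells (clone 41) carry Ring1aI50A/D53K together with Ring1b(WT->I53A/D56K)fl/fl, and their OHT treatment inverts an exon of *Ring1b*, so that the protein made carries the I53A/D56K mutations. The *Ring1a* alleles are constitutive, so untreated cells of each line already lack RING1A or carry its I50A/D53K form. Both untreated cells (UNT) and cells kept in 800 nM OHT for 72 h were sampled from each line, in 3 biological replicates per condition (4 conditions, 12 libraries). No OHT-treated line with intact *Ring1b* is among these libraries, so an effect of OHT or Cre on its own and the effect on *Ring1b* cannot be told apart.

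ZIC proteins bind DNA through a block of C2H2 zinc fingers that is closely related to that of the GLI factors, the transcription factors at the end of the Hedgehog pathway. They are best known from the dorsal neural tube, the neural crest and the cerebellum. *Zic1* and *Zic4* act in the growth of the cerebellum, *Zic2* in the early forebrain, where its loss causes holoprosencephaly, and *Zic5* in the neural crest and in closure of the neural tube. PRC1, whose catalytic subunits are RING1A and RING1B, adds ubiquitin to histone H2A at the promoters of many developmental genes, and the study asked how far gene repression depends on that activity. Occupancy of the *Zic* promoters by PRC1 was not analysed here.

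On GRCm38 (mm10), *Zic1* (NM_009573) lies at chr9:91360345-91365799 on the minus strand in the deposited table and *Zic4* (NM_009576) at chr9:91368972-91389348 on the plus strand. The pair is transcribed away from a common interval, with 3173 bases from start to start. *Zic5* (NM_022987) lies at chr14:122459160-122465658 on the minus strand and *Zic2* (NM_009574) at chr14:122475384-122480328 on the plus strand, with 9726 bases between the starts. Each pair thus has the head-to-head order. The RefSeq annotation used for exons places NM_009573 at chr9:91358058-91365768, so the deposited body of *Zic1*, over which its reads were counted, leaves out part of the 3′ end. The bodies of the other members are the same in both. The RefSeq transcripts have 3 exons for *Zic1*, 5 for *Zic4*, 3 for *Zic2* and 2 for *Zic5*. The window of 1001 bases centred on each start held 49 CpG dinucleotides for *Zic1*, 24 for *Zic4*, 43 for *Zic5* and 123 for *Zic2*, against a median of 48 over all transcripts. The start of *Zic2* was thus the most CpG-rich of the 4, and 97.3% of all transcripts had fewer CpGs around their starts, against 31.8% for *Zic4*. The interval between the starts held 27.4 CpGs per kb at the *Zic1*-*Zic4* locus and 29.8 per kb at the *Zic5*-*Zic2* locus.

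How alike the 4 genes are matters for the counts, since a read that fits several members would be lost or misassigned. The stretch shown is coding sequence read from the reference genome in transcript orientation, 5′ to 3′. It is the second coding exon of *Zic1*, which encodes part of the zinc finger block, with the matching stretches of the other members, and capitals mark the bases that differ from *Zic1* or are not in it.
Zic1: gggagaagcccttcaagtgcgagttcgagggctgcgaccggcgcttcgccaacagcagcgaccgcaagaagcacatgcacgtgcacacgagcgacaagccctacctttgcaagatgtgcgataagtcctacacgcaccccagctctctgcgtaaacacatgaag
Zic4: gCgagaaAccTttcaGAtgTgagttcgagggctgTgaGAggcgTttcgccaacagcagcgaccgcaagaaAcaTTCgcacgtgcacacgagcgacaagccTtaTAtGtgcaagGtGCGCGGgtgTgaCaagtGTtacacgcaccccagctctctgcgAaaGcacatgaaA
Zic2: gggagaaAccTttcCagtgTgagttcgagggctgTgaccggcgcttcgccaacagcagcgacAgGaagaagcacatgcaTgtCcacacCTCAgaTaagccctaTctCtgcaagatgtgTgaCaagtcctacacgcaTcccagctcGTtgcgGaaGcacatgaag
Zic5: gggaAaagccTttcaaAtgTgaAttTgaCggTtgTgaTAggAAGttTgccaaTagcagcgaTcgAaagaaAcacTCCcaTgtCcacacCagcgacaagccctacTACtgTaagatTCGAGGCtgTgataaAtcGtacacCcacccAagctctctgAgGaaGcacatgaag
The *Zic1* stretch is at chr9:91362459-91362622 (minus strand) and that of *Zic4* at chr9:91384014-91384183 (plus strand). The *Zic2* stretch is at chr14:122478540-122478703 (plus strand) and that of *Zic5* at chr14:122459606-122459775 (minus strand). *Zic2*, from the other locus, shared 86.0% of the aligned bases with *Zic1*, while *Zic4*, its partner on chromosome 9, shared 81.2% and *Zic5* 74.1%. *Zic2* and *Zic5*, partners on chromosome 14, shared 72.9%. *Zic4* and *Zic5* carry 6 bases that *Zic1* lacks, in the run of capitals towards the end of each line. Over the whole gene bodies, the longest exact run that any pair of the 4 shared was 42 bases, between *Zic1* and *Zic4*, and the reads had 80 bases. No window of 80 bases occurred in more than 1 of these 4 bodies, and the authors kept uniquely aligned reads only.

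The depth of the libraries ran from 14668159 to 27016156 reads on genes, with medians of 20998133 in untreated and 24004077 in OHT-treated PRC1CKO cells, and of 19062652 and 23164194 in the corresponding PRC1CPM cells. Values are normalised read counts, that is, reads on the gene body divided by 1 size factor per library that was set from *Drosophila* cells mixed in before RNA extraction. On this scale, replicate 1 of each condition had the highest total. In untreated PRC1CKO cells it had 24958331 normalised reads against 17618069 and 17755844 in the other replicates, so it stands apart there. In PRC1CPM cells it had 24373383 against 19075822 and 19883420 before, and 26077686 against 17909909 and 21836456 after treatment. Without replicate 1 of untreated PRC1CKO cells, log2 fold changes in that line were compared for the genes described further on. They moved most for *Zic4* (4.95 to 5.62), *T* (1.88 to 2.75) and *Hand1* (2.68 to 3.41). Without OHT replicate 1 of PRC1CPM cells, *Zic4* moved from 4.38 to 3.93 in that line. The targeted genes were still counted in all libraries. *Rnf2*, which encodes RING1B, had normalised read counts of 1756, 1436 and 1385 in untreated and 1489, 1565 and 1585 in OHT-treated PRC1CKO cells. In PRC1CPM cells it had 1850, 1659 and 1578 before and 1724, 1295 and 1513 after treatment. *Ring1*, which encodes RING1A, had 313, 204 and 166, then 281, 251 and 229 in PRC1CKO cells, and 179, 182 and 125, then 161, 111 and 148 in PRC1CPM cells. For *Rnf2*, a count over the whole gene body lies almost entirely outside the removed or inverted exon, so it checks nothing about recombination. The constitutive *Ring1a* deletion of PRC1CKO cells covers part of the gene, and reads inside it were not counted apart. The *Ring1* values are therefore no check on that deletion. Of 8 pluripotent stem cell markers, 7 were in the table, all 7 had reads in the untreated cells of both lines, and their summed normalised read counts were 66321 ± 15940 and 60877 ± 11065 (SD, n = 3).

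*Zic1* had very few reads in untreated cells of both lines and was read at a substantial level after OHT treatment. In PRC1CKO cells its normalised read counts were 8.94, 3.08 and 3.38 in the untreated libraries and 253, 247 and 189 in the OHT-treated libraries. In PRC1CPM cells they were 7.67, 1.88 and 8.13 before and 149, 81.2 and 137 after treatment. Every OHT-treated library lay far above every untreated library, so the groups did not overlap in either line. The untreated values rest on 2 to 6 reads each and the OHT-treated values on 105 to 280. The means were 5.13 ± 3.30 and 230 ± 35.2 in PRC1CKO cells, and 5.90 ± 3.48 and 122 ± 36.0 in PRC1CPM cells (SD, n = 3).

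Tests used limma on log2(normalised read count + 1) over the 16940 transcripts that reached 10 reads in 3 or more libraries. A gene was called at a Benjamini-Hochberg adjusted p under 0.05 with a fold change above 1.5. All 4 members were tested, but *Zic1* and *Zic4* had under 10 reads in every untreated library and entered only through the OHT-treated libraries, so the number of members tested is no evidence of a change. *Zic1* rose by a log2 fold change of 5.35 in PRC1CKO cells (standard error 0.47, 95% interval 4.40 to 6.29, adjusted p = 3.8e-13 from limma). In PRC1CPM cells it rose by 4.29 (standard error 0.47, 95% interval 3.34 to 5.23, adjusted p = 7.0e-10). These changes held ranks 11 and 17 from the top among all transcripts tested, of which 16.5% were called higher in PRC1CKO and 13.1% in PRC1CPM cells. Pooling the reads of each condition gave ratios of 51.6 (95% counting interval 30.6 to 94.9) and 21.8 (12.9 to 40.3), which cover counting error only. In bulk RNA, expression in more of the cells and more RNA per cell cannot be told apart.

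**Figure D1:**
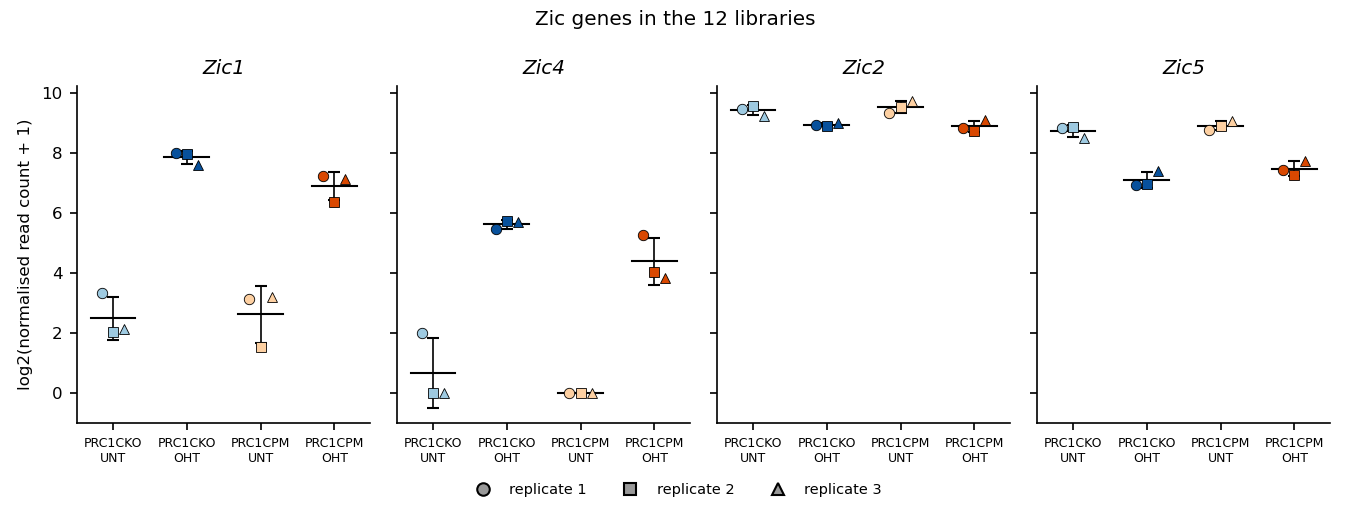
Each panel plots log2(normalised read count + 1) of a *Zic* gene in the 12 libraries, by line and treatment, with symbols for the 3 replicates, horizontal bars for means and error bars for SD. *Zic1* and *Zic4* lie low without OHT and high with it, while *Zic5* lies lower in each OHT-treated group and *Zic2* lies slightly lower.

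*Zic4*, across the shared interval from *Zic1*, also rose, to a lower level. Untreated PRC1CKO libraries held 2.98, 0 and 0 normalised read counts, and the OHT-treated libraries 42.5, 51.8 and 50.6. All 3 untreated PRC1CPM libraries were at 0, and the OHT-treated libraries held 37.6, 15.5 and 13.1. Here too every treated library lay above every untreated library. In PRC1CPM cells replicate 1 lay above the other treated libraries. Behind these values stood 2 reads before and 161 after treatment in PRC1CKO cells, and 0 and 71 reads in PRC1CPM cells. Pooled reads gave a ratio of 76.2 in PRC1CKO cells (95% counting interval 20.7 to 634), in which both untreated reads come from replicate 1. Without that library the untreated group was at 0, and *Zic4* was at least 40.0-fold higher after treatment, with a floor of 3 reads over the group. Without untreated replicate 2 or 3 the ratio was 44.8 or 47.6. *Zic4* was at least 18.8-fold higher in OHT-treated than in untreated PRC1CPM cells, with the untreated group set at the same floor. Replicate 1 held 39 of the 71 treated reads, and without it the bound was 12.5-fold. With any other library of the line left out it lay between 11.1-fold and 22.5-fold. In limma the log2 fold changes were 4.95 in PRC1CKO (adjusted p = 1.0e-07) and 4.38 in PRC1CPM cells (adjusted p = 3.3e-06), each with a standard error of 0.69. Their sizes depend on the added count of 1, since the untreated counts are at or near 0.

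The pair on chromosome 14 started from a very different level. *Zic5* was expressed without treatment, at normalised read counts of 451, 464 and 354 in PRC1CKO and 431, 467 and 530 in PRC1CPM cells. After OHT treatment the counts were 119, 123 and 167 in PRC1CKO and 170, 152 and 211 in PRC1CPM cells. Every treated library lay below every untreated library of its line. The means went from 423 ± 60.0 to 136 ± 26.3 and from 476 ± 50.1 to 178 ± 30.7 (SD, n = 3). *Zic5* fell by 1.63 on the log2 scale in PRC1CKO cells (standard error 0.27, 95% interval -2.18 to -1.09, adjusted p = 3.9e-06 from limma), which is 3.10-fold lower. In PRC1CPM cells it fell by 1.43 (standard error 0.27, 95% interval -1.97 to -0.88, adjusted p = 7.8e-05), or 2.69-fold lower. Among all transcripts tested, 3.09% were called lower in PRC1CKO and 1.4% in PRC1CPM cells, and *Zic5* held ranks 93 and 70 from the bottom.

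*Zic2*, the partner of *Zic5*, had the highest mean level per kb of the 4 members in all conditions and did not pass the threshold. Its normalised read counts were 708, 753 and 595 in untreated and 479, 472 and 507 in OHT-treated PRC1CKO libraries. In PRC1CPM libraries they were 633, 729 and 835 before and 456, 418 and 541 after treatment. The treated libraries were lower than the untreated libraries without overlap in both lines, with means of 486 ± 18.4 against 685 ± 81.0 and of 471 ± 63.3 against 732 ± 101 (SD, n = 3). How many of all transcripts separate in this way was not counted, here or for the other members, so the separation is a description only. The log2 fold change was -0.49 in PRC1CKO (standard error 0.24, 95% interval -0.96 to -0.012, adjusted p = 0.164) and -0.63 in PRC1CPM cells (standard error 0.24, 95% interval -1.11 to -0.16, adjusted p = 0.0647). The outcome for *Zic2* depended on the scale and the fit. With TMM in place of the spike-in scale it was called lower in both lines (-0.61, adjusted p = 0.0247, and -0.74, adjusted p = 0.0113). In PRC1CPM cells it was also called with the replicate number as a block (adjusted p = 0.000223 from limma) and without replicate 1 of untreated PRC1CKO cells (adjusted p = 0.0312), since all 12 libraries share 1 estimate of the spread.

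**Figure D2:**
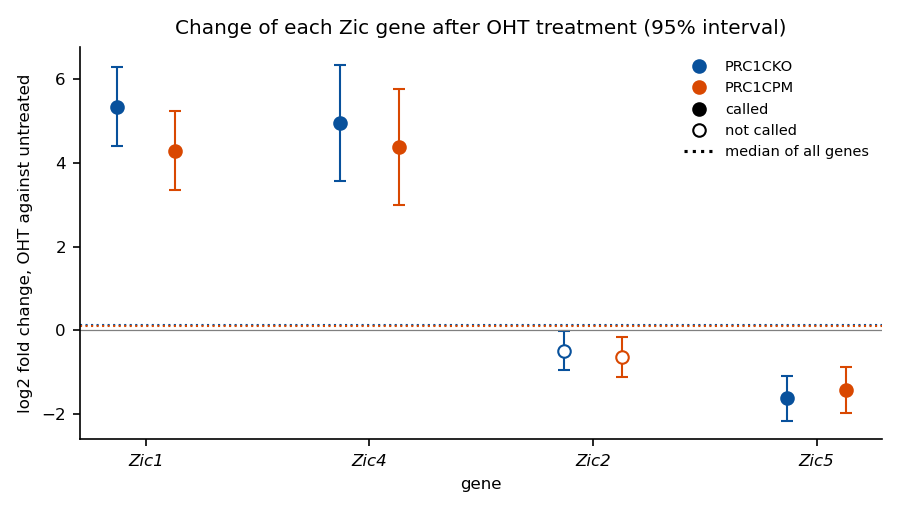
Points show the log2 fold change of each *Zic* gene, OHT-treated against untreated, in PRC1CKO (blue) and PRC1CPM cells (orange), with 95% intervals from limma; filled points were called and dotted lines mark the median of all genes tested (0.12 and 0.10). The members on chromosome 9 lie above 4 in both lines and those on chromosome 14 lie below 0.

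The partners on chromosome 14 were also compared within libraries. The log2 ratio of *Zic5* to *Zic2* within a library was -0.65, -0.70 and -0.75 in untreated and -1.996, -1.93 and -1.60 in OHT-treated PRC1CKO cells. In PRC1CPM cells it was -0.55, -0.64 and -0.65 before and -1.42, -1.46 and -1.35 after treatment. The treated ratios were lower in every library. This ratio does not depend on the size factor except through the added count of 1. As normalised read counts over the gene bodies, *Zic5* amounted to 59.5 to 63.8% of *Zic2* without and 24.9 to 32.9% with OHT in PRC1CKO cells, and to 63.5 to 68.1% and 36.3 to 39.1% in PRC1CPM cells. The mean log2 ratio changed by -1.15 in PRC1CKO and -0.79 in PRC1CPM cells (exact permutation test, two-sided, n = 3 per group, p = 0.1 in each line, a design in which no smaller p can be reached). Permuted within each line and averaged over both, a test added after the values were seen and so not independent of them, the ratio of *Zic5* to *Zic2* changed by -0.97 (exact permutation test, two-sided, p = 0.005, the smallest it can give) and that of *Zic4* to *Zic1* by -0.15 (p = 0.68, same test). The permutations took no account of the replicate numbers, which pair the PRC1CPM libraries and tie the lines, so the p-values ignore that pairing.

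The ratio of *Zic4* to *Zic1* could not be resolved at this depth, since *Zic4* had 0 reads in 2 of the untreated PRC1CKO and all 3 untreated PRC1CPM libraries. It changed by -0.39 on the log2 scale in PRC1CKO cells (exact permutation test, two-sided, n = 3, p = 0.4) and by 0.093 in PRC1CPM cells (exact permutation test, two-sided, n = 3, p = 1), where p = 0.1 is the lower limit, and the treated and untreated libraries overlapped. With so few untreated reads, this ratio is set by the added count: with 0.1 in place of 1 the changes were 1.65 and 3.07.

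**Figure D3:**
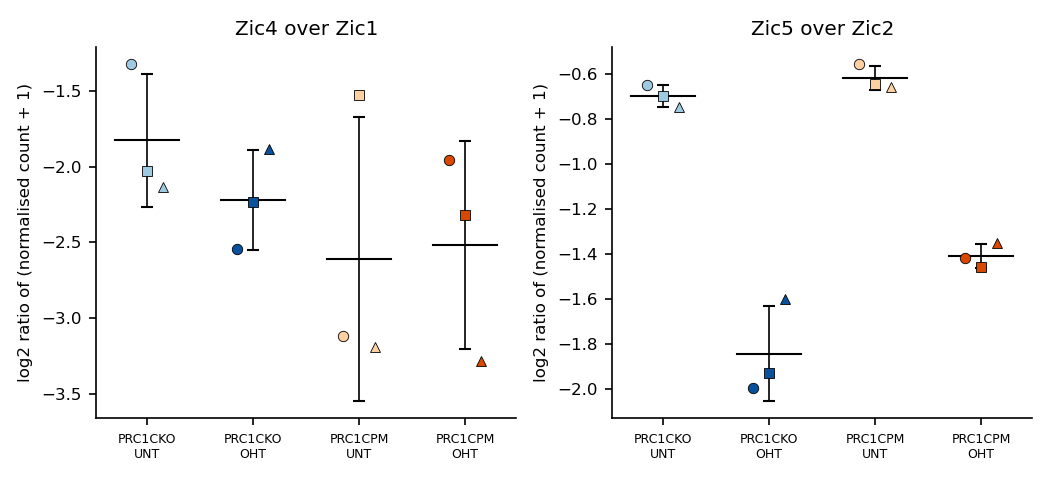
Each panel plots the log2 ratio of (normalised read count + 1) of the partners at a locus, *Zic4* over *Zic1* and *Zic5* over *Zic2*, for each library (circle, square and triangle for replicates 1, 2 and 3), with bars for means and error bars for SD. *Zic5* over *Zic2* lies between -0.75 and -0.55 in untreated and between -1.996 and -1.35 in OHT-treated libraries, and *Zic4* over *Zic1* overlaps between treatments.

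For comparison with other gene pairs, 1572 pairs of transcripts on opposite strands had the same head-to-head order with starts within 10000 bases and both partners tested. The absolute difference between the log2 fold changes of partners had a median of 0.290 in PRC1CKO and 0.249 in PRC1CPM cells. A call of at least 1 partner was made in 222 of these pairs in PRC1CKO cells. Both partners were called in 58, of which 53 were higher together, as *Zic1* and *Zic4* were, 4 were lower together and 1 was opposite. In PRC1CPM cells 164 pairs had a call and 37 had both partners called, 35 of them higher and 2 lower. Pairs were not tested against each other. Each transcript was kept in its closest pair only. *Zic2* was therefore paired with *2610035F20Rik*, a transcript beside its start on the other strand. The *Zic1*-*Zic4* pair is among the pairs counted, and the *Zic5*-*Zic2* pair is not.

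Levels per kb of gene body put the members on 1 scale. These are normalised read counts per kb, and they count introns, which take a larger part of *Zic4*, where exons make up 20.1% of the body, than of *Zic5* (36.7%), *Zic1* (60.8%) and *Zic2* (60.0%). In untreated PRC1CKO cells the order was *Zic2* (139 ± 16.4), *Zic5* (65.1 ± 9.24), *Zic1* (0.941 ± 0.605) and *Zic4* (0.0487 ± 0.0844; SD, n = 3), and libraries of neighbours in that order did not overlap. Untreated PRC1CPM cells had the same order, with 148 ± 20.4, 73.3 ± 7.71, 1.08 ± 0.638 and 0 (SD, n = 3), again without overlap. After OHT treatment, *Zic1* reached 42.1 ± 6.46 per kb in PRC1CKO cells, above *Zic5* at 21.0 ± 4.04 in every library. In PRC1CPM cells *Zic1* reached 22.4 ± 6.61 and *Zic5* 27.3 ± 4.72, and their libraries overlapped, with *Zic2* above both at 95.3 ± 12.8 (SD, n = 3). In PRC1CKO cells *Zic2* was at 98.3 ± 3.72 after treatment, also the highest. *Zic4* stayed the lowest per kb in all conditions, at 2.37 ± 0.249 and 1.08 ± 0.664 after treatment. Per kb of exon inside these bodies, a scale added after the values were seen, some neighbours came closer or parted. *Zic1* then ran from 57.0 to 76.3 and *Zic5* from 50.1 to 69.9 in the 3 OHT-treated PRC1CKO libraries, so they overlapped. In OHT-treated PRC1CPM cells they were at 36.8 ± 10.9 and 74.5 ± 12.9 without overlap (SD, n = 3). In untreated PRC1CPM cells *Zic2* (247 ± 34.1) and *Zic5* (200 ± 21.0) overlapped on this scale (SD, n = 3).

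Whether removing PRC1 and removing its catalysis act differently on the family was asked with direct comparisons between the lines. Before treatment the lines did not differ detectably in *Zic1* (log2 difference, PRC1CPM minus PRC1CKO, 0.12), *Zic2* (0.094) or *Zic5* (0.17). *Zic4* had -0.66 (adjusted p = 0.836 from limma), a value that rests on 2 reads, was 0 without replicate 1 of untreated PRC1CKO cells and was -2.68 in edgeR. In that comparison 2.69% of all transcripts tested were called (455 transcripts, or 1884 with the replicate block and 1050 with TMM). After OHT treatment *Zic1* was lower in PRC1CPM cells by a log2 difference of -0.94 (95% interval -1.89 to 0.0039, adjusted p = 0.457 from limma), and its highest PRC1CPM library (149) lay under its lowest PRC1CKO library (189). *Zic4* differed by -1.24 (adjusted p = 0.545), likewise without overlap, *Zic2* by -0.052 and *Zic5* by 0.38 (adjusted p = 0.722). The share of all transcripts whose libraries do not overlap between the treated lines was not counted. None of the 4 was called, against 1.47% of all transcripts (249, or 1363 with the replicate block and 785 with TMM). The block left all 4 uncalled between the lines as well, with *Zic1* after treatment at an adjusted p of 0.0662 in limma. The difference between the lines' changes, which is the interaction of line and treatment, was -1.06 for *Zic1* (standard error 0.67), -0.58 for *Zic4* (0.98), -0.15 for *Zic2* (0.34) and 0.21 for *Zic5* (0.38), all with an adjusted p of 0.9999 from limma. That of *Zic4* was -1.24 without replicate 1 of untreated PRC1CKO cells. It had the opposite sign with a pseudocount of 0.1 (0.37), in DESeq2 (0.49) and in edgeR (1.55). In limma 4 transcripts of all those tested (0.0236%) were called for the interaction, and 497 had an unadjusted p under 0.05. edgeR also called 4, DESeq2 15, limma with TMM 14 and limma with the replicate number as a block 324, none of them a member under the block.

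The window of 1 Mb on either side of the *Zic1*-*Zic4* locus held 3 other transcripts, of which *Plscr1* and *Plscr2*, which encode phospholipid scramblases, were tested. Their log2 fold changes were 0.24 and 0.039 in PRC1CKO and 0.18 and 0.48 in PRC1CPM cells, and neither was called. Their starts lie 883 and 908 kb from the midpoint of the pair, and no other tested transcript lies closer. The corresponding window around the *Zic2*-*Zic5* locus held 19 other transcripts, 15 of them tested. In each line 3 of these, all of 1 gene, were called higher and 1 was called lower, against 16.5% and 3.09% of all transcripts in PRC1CKO and 13.1% and 1.4% in PRC1CPM cells. The 3 transcripts of *Dock9*, a guanine nucleotide exchange factor for the GTPase Cdc42, overlap and were called higher in both lines, by 0.62 to 0.63 in PRC1CKO and 0.67 to 0.79 in PRC1CPM cells. Each of these calls was lost in some of the fits that left out 1 library, with values then between 0.49 and 0.69. With TMM none of the 3 passed in PRC1CKO cells, since their fold changes fell under 1.5. None of the 3 passed there without the gDNA-seq correction either (0.47 to 0.49). In PRC1CPM cells 1 of them, NM_001081039, was not called with TMM (0.57) or median-of-ratios (0.56). *Gm5089*, a long non-coding RNA whose start lies 19.4 kb from the midpoint of the locus on the *Zic5* side, fell by 1.55 in PRC1CKO cells (adjusted p = 0.00887 in limma, standard error 0.45) and changed by -0.95 in PRC1CPM cells (adjusted p = 0.190 from limma). There it was called lower with the replicate block (-0.95) and without untreated replicate 2 (-1.22). Its PRC1CKO call was lost without replicate 1 of untreated PRC1CKO cells (log2 fold change -1.22) and without replicate 2 of OHT-treated PRC1CKO cells (-0.74).

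*A330035P11Rik*, another non-coding transcript farther out on that side, changed by -0.32 in PRC1CKO cells and fell by 1.33 in PRC1CPM cells (adjusted p = 0.0318 from limma). That call was lost in 4 of the fits that left out 1 library, with values then between -1.36 and -1.10. It was also lost without the gDNA-seq correction (-1.04). The remaining 10 tested transcripts were called in neither line, with changes from -1.16 to 0.50 in PRC1CKO and from -0.39 to 0.49 in PRC1CPM cells. They include the transcript *2610035F20Rik*, which lies beside the start of *Zic2* on the other strand and overlaps no member, at mean normalised read counts of 15.9 ± 2.98 and 6.90 ± 3.43 in PRC1CKO and 20.4 ± 12.4 and 15.5 ± 5.60 in PRC1CPM cells (SD, n = 3). It was called lower in PRC1CKO cells with TMM (-1.28) and median-of-ratios (-1.29).

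**Figure D4:**
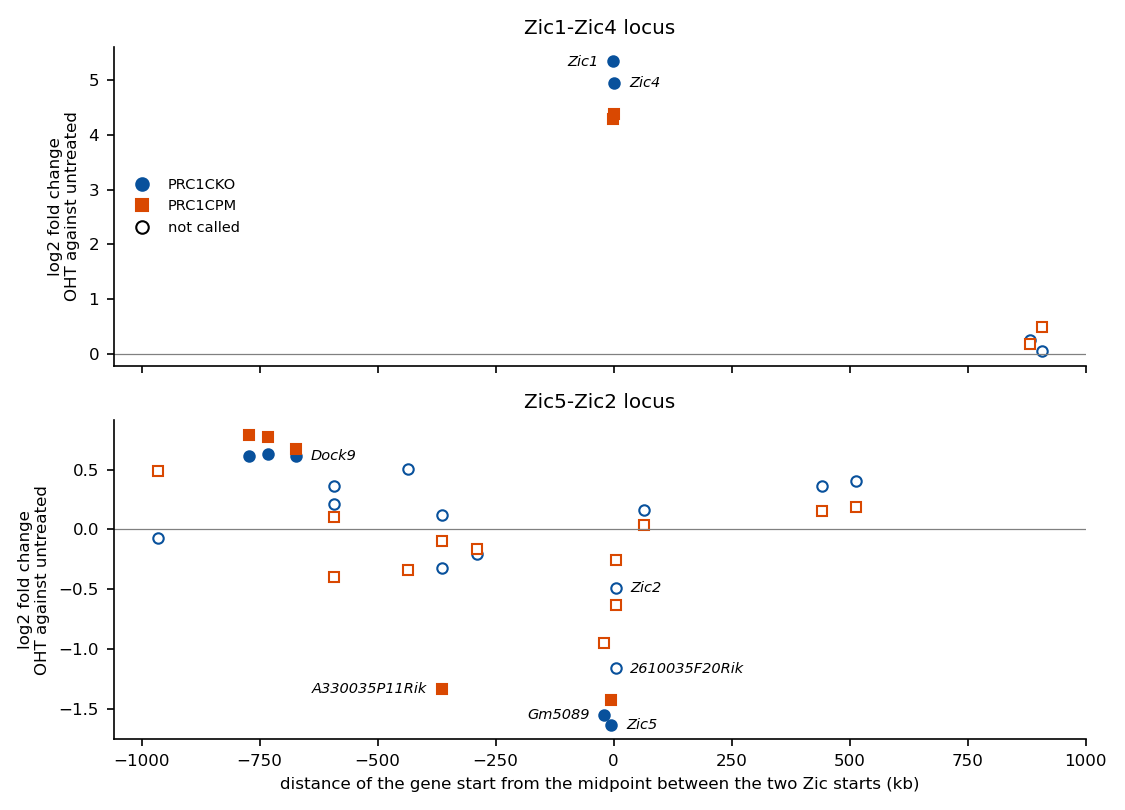
The log2 fold change of each tested transcript within 1 Mb of the *Zic* pairs is plotted against the distance of its start from the midpoint between the starts of the pair, in kb, for PRC1CKO (circles) and PRC1CPM cells (squares); filled symbols were called. *Zic1* and *Zic4* stand alone at the top, and *Zic5* and *Gm5089* lie lowest near the centre of the other locus.

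The GLI and GLIS factors, the closest relatives of the ZIC proteins, moved both ways. Of 6 genes, all tested, 3 were higher and 1 lower in PRC1CKO cells, and 3 were higher and none lower in PRC1CPM cells, with median log2 fold changes of 0.56 and 0.64 against 0.12 and 0.10 over all genes. Of all transcripts tested, 16.5% were higher and 3.09% lower in PRC1CKO and 13.1% and 1.4% in PRC1CPM cells. *Glis3* rose by 2.03 in PRC1CKO and 1.28 in PRC1CPM cells, and *Glis1* by 1.72 and 1.19. *Gli3*, often a repressor in the Hedgehog pathway, rose by 0.75 in PRC1CKO cells and had 0.49 in PRC1CPM cells, where it was not called. Its PRC1CKO call was lost without untreated replicate 3 (0.49) or OHT replicate 1 (0.58). That call was also lost without the gDNA-seq correction (0.60), a setting in which *Gli3* was called higher in PRC1CPM cells (0.79). *Gli1*, a common readout of Hedgehog signalling, fell by 1.16 in PRC1CKO cells (adjusted p = 0.000115 from limma), and its value of -0.65 in PRC1CPM cells was called only under some settings (TMM, the replicate block and DESeq2 among them).

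Genes of the dorsal neural tube and neural crest, where the *Zic* genes are best known, were mostly higher. Of 16 genes 15 were tested, 12 were higher in PRC1CKO and 11 in PRC1CPM cells and none was lower, against 16.5% and 13.1% of all transcripts called higher. The list medians were 2.74 and 1.72, against 0.12 and 0.10 over all genes. *Pax3*, a dorsal neural tube factor, rose by 5.97 and 4.03, and *Gdf7*, a roof plate ligand, by 3.94 and 1.52. The PRC1CPM call of *Gdf7* was lost without untreated replicate 3 (1.46) or OHT replicate 1 (1.23). *Pax7* rose by 3.74 in PRC1CKO cells and *Sox9*, a neural crest factor, by 3.55, whereas in PRC1CPM cells their values of 1.15 and 1.18 did not pass in the limma fit described above. Both were called there by limma with the replicate block, by edgeR and DESeq2 and without the gDNA-seq correction. *Pax7* was also called with TMM (1.05), with median-of-ratios (1.04) and in 4 of the fits that left out 1 library, and *Sox9* without OHT replicate 2 (1.71). Before treatment, 3 genes of the list, *Gdf7*, *Sox9* and *Lmx1b*, were called higher in PRC1CPM than in PRC1CKO cells. Of all transcripts tested, 2.69% were called in that comparison, in either direction. *Gdf7* had 5.37 ± 3.55 normalised read counts in untreated PRC1CKO and 29.7 ± 3.68 in untreated PRC1CPM cells (SD, n = 3, adjusted p = 0.000463 from limma), and 84.1 ± 6.76 and 91.1 ± 35.8 after OHT. *Sox9* had 5.35 ± 2.81 and 27.6 ± 7.15 (SD, n = 3, adjusted p = 0.00316 from limma), and 71.8 ± 27.1 and 72.4 ± 44.2 after OHT. *Lmx1b* had 96.0 ± 12.7 and 206 ± 37.0 (SD, n = 3, adjusted p = 0.0139 from limma), and 649 ± 110 and 518 ± 76.6 after OHT. These genes, other than *Lmx1b*, were named for the size of their change in PRC1CKO cells. Chosen after their values were seen, *Atoh1* had log2 fold changes of 2.65 in PRC1CKO and 2.82 in PRC1CPM cells, *Wnt3a* 2.40 and 2.80, *Sox10* 1.59 and 1.72 and *Msx2* 1.26 and 1.36, all called. Each of these was larger in PRC1CPM cells, unlike the list medians. *Foxd3* (0.14 in PRC1CKO and -0.30 in PRC1CPM cells) and *Snai2* (0.48 and 0.37) were called in neither line. Between the OHT-treated lines, 2 genes of the list were called lower in PRC1CPM than in PRC1CKO cells. Of all transcripts tested, 1.47% were called there, in either direction. *Pax3* had 618 ± 60.3 normalised read counts in PRC1CKO and 211 ± 48.4 in PRC1CPM cells (SD, n = 3, log2 difference -1.57, adjusted p = 0.0179 from limma). *Tfap2a* had 302 ± 22.5 and 79.0 ± 5.91 (SD, n = 3, log2 difference -1.92, adjusted p = 0.00127 from limma). In limma without the block, no gene of the list was called for the interaction of line and treatment, and the list was not counted there under other settings. *Wnt1* had too few reads. The summed normalised read count of the list went from 483 ± 144 to 2947 ± 323 in PRC1CKO and from 660 ± 113 to 2100 ± 429 in PRC1CPM cells (SD, n = 3), with *Lmx1b* the most abundant. *Zic1* and *Zic4* thus rose in libraries in which many genes of this list rose too, with no test that ties them.

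Lists of early neural and primed epiblast genes were mixed, and their counts stand against the same shares of all transcripts (16.5% higher and 3.09% lower in PRC1CKO, 13.1% and 1.4% in PRC1CPM cells) and medians of all genes. Of 6 early neural genes, 3 were higher and 1 lower in PRC1CKO cells and 2 were higher in PRC1CPM cells, with medians of 0.51 and 0.52. With a pseudocount of 0.1 only 1 was higher in PRC1CPM cells, since *Neurog2* was not called, although its log2 fold change there was 3.87. Over all settings *Neurog2* ran from 2.42 to 4.90 in PRC1CKO and from 2.01 to 3.87 in PRC1CPM cells. *Pax6* rose by 3.06 and 1.28 and *Neurog2*, which was at 0 in 3 libraries, by 2.66 and 2.53. *Pax6* was not called in PRC1CPM cells without untreated replicate 1 (1.07). The calls of *Neurog2* were lost without untreated replicate 3, OHT replicate 1 or OHT replicate 2 in PRC1CKO cells (2.42 to 2.44), and without untreated replicate 2, OHT replicate 1 or OHT replicate 3 in PRC1CPM cells (2.01 to 2.39). *Nes*, the most abundant of the list, rose by 1.28 in PRC1CKO cells, while *Tubb3* fell by 0.71 there, a call that was lost without untreated replicate 1 or 3, any 1 of the OHT replicates or untreated PRC1CPM replicate 3 (-0.80 to -0.54). The summed normalised read count of these genes was 1449 ± 574 before and 2210.0 ± 180 after treatment in PRC1CKO cells, and 1644 ± 143 and 2037 ± 583 in PRC1CPM cells (SD, n = 3). Untreated PRC1CKO replicate 1 held 2109 against 1167 and 1071 in the other replicates. Of 8 primed epiblast genes, 3 were higher and 1 lower in PRC1CKO and 2 were higher and 1 lower in PRC1CPM cells, with medians of 0.67 and 0.11. With the replicate block 5 were higher in PRC1CKO cells. *Sox3* rose by 2.57 and 2.01 and *Cdh2* by 2.12 and 1.27. *Dnmt3b*, at 0.68, passed in PRC1CKO cells only under some settings, TMM and the spike-in scale without gDNA-seq correction not among them, and had 0.013 in PRC1CPM cells. *Otx2*, a factor of the epiblast and the forebrain, fell by 1.01 and 1.20, the same direction as *Zic5*, and its PRC1CKO call was lost without OHT replicate 2 (-0.82).

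Markers of other cell types moved with OHT treatment as well, and their part in the changes of the *Zic* genes was not tested. Their counts too are to be read against 16.5% of all transcripts called higher in PRC1CKO and 13.1% in PRC1CPM cells, and their medians against 0.12 and 0.10. Endoderm markers, all 5 tested, were higher for 4 genes in PRC1CKO and 5 in PRC1CPM cells, with medians of 2.14 and 2.26. *Gata6*, the most abundant, rose by 2.96 and 2.26, *Foxa2* by 2.80 and 2.87, *Gata4* by 2.14 and 1.63 and *Sox17* by 1.39 and 1.35. The calls of *Sox17* were lost without untreated replicate 3 or OHT replicate 1 or 2 in PRC1CKO cells (0.96 to 1.39), and without untreated replicate 1 or 3 or OHT replicate 1 or 2 in PRC1CPM cells (1.03 to 1.38). Its PRC1CKO call was also lost without the gDNA-seq correction (1.24). The summed normalised read counts of the endoderm markers went from 401 ± 219 to 1974 ± 359 and from 218 ± 12.5 to 841 ± 190 (SD, n = 3). Untreated PRC1CKO libraries held 642, 346 and 214, so replicate 1 carried much of that sum. Between the OHT-treated lines *Gata6* was called lower in PRC1CPM cells (log2 difference -1.78, adjusted p = 0.000388 from limma), against 1.47% of all transcripts called. Between the untreated lines *Sox7* was called lower there (-2.26, adjusted p = 0.000513 from limma), against 2.69%. Of 5 mesoderm markers 4 were tested, and 2 were higher in PRC1CKO and 3 in PRC1CPM cells, with medians of 1.62 and 1.41 and *Eomes* the most abundant. *T* rose by 1.88 and 1.51 and *Eomes* by 1.57 and 1.31. The list summed to 160 ± 99.3 and 435 ± 93.5 in PRC1CKO and to 177 ± 85.8 and 450 ± 157 in PRC1CPM cells (SD, n = 3). Replicate 1 carried much of the untreated sums, at 274 against 105 and 99.8 in PRC1CKO and 276 against 129 and 126 in PRC1CPM cells. With the replicate block 4 were higher in PRC1CKO cells, and with DESeq2 only 1 was higher in PRC1CPM cells. *T* was not called with DESeq2 in either line (1.37 and 1.35), without untreated replicate 3 in PRC1CKO cells (1.30), or without untreated replicate 3 or OHT replicate 1 in PRC1CPM cells (both 1.17). Of 5 trophoblast markers 4 were tested, with medians of 1.86 and 1.84. In PRC1CKO cells 2 were higher (*Gata3* by 3.26 and *Hand1* by 2.68) and *Tfap2c*, the most abundant, was lower by a log2 fold change of -0.66, a call that was lost without untreated replicate 2 or any 1 of the OHT replicates (-0.69 to -0.56). In PRC1CPM cells 3 were higher, *Gata3* by 2.02 and *Hand1* by 1.97 among them, and *Tfap2c* had 0.36. With DESeq2 only 1 was higher there, and *Hand1* was not called (1.85). *Hand1* was at 2.01 in PRC1CKO cells without untreated replicate 3. The list summed to 1534 ± 204 and 1340 ± 168 in PRC1CKO and to 1048 ± 64.3 and 1567 ± 328 in PRC1CPM cells (SD, n = 3).

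Most pluripotent stem cell markers were not called, and their medians of -0.22 in PRC1CKO and -0.15 in PRC1CPM cells lay below the first quartile of all genes (-0.15 and -0.12). Of the 7 measured, 1 (*Sox2*, which fell by 0.89) was called lower in PRC1CKO cells and none in PRC1CPM cells, against 3.09% and 1.4% of all transcripts. In PRC1CPM cells *Sox2* had -0.45. In PRC1CKO cells 2 were called lower with edgeR, with TMM and without the gDNA-seq correction, and in PRC1CPM cells 2 were called higher without that correction. Their summed normalised read counts after treatment were 51634 ± 4007 and 55868 ± 16207 (SD, n = 3), with *Tdgf1* the most abundant. The sums were 84310, 53954 and 60698 before and 50410, 48382 and 56110 after treatment in PRC1CKO libraries, of which 2 treated libraries lay below the lowest untreated library. In PRC1CPM libraries they were 70943, 49028 and 62659, then 65912, 37171 and 64521, and the groups overlapped. None of the marker genes of these lists was at 0 in all 12 libraries.

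**Figure D5:**
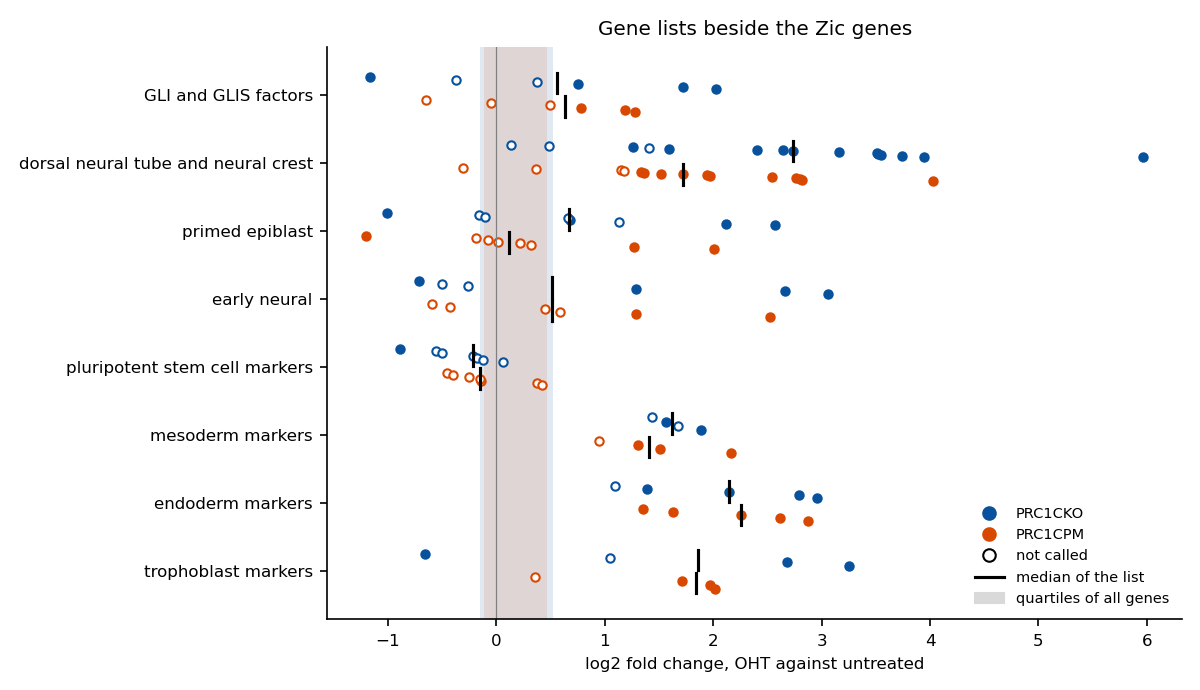
Each point is the log2 fold change of a tested gene, OHT-treated against untreated, in PRC1CKO (blue) and PRC1CPM cells (orange); filled points were called, vertical bars mark list medians and shading the quartiles of all genes tested (-0.15 to 0.52 and -0.12 to 0.47). The dorsal neural tube and endoderm lists lie mostly above the shading, and the pluripotency markers lie in and below it.

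Over the 12 libraries, *Zic1* and *Zic4* had a Pearson r of 0.970 and *Zic2* and *Zic5* of 0.937 in log2(normalised read count + 1). Both values include the difference between treated and untreated libraries. With the condition means removed, r was 0.543 for *Zic1* and *Zic4* and 0.861 for *Zic2* and *Zic5*, so the chromosome 14 partners also varied together among replicates, which share the spike-in scale of each library. Among 15787 other symbols, those most like *Zic1* over the 12 libraries were *Slc7a2* (r = 0.993), *Bcor* (0.992) and *Tmem178* (0.992). Those most like *Zic4* were *Pcsk6* (r = 0.991), *Lancl3* (0.989) and *Tmeff2* (0.988). *Slc7a2*, a cationic amino acid transporter, rose by 2.45 and 2.08, and *Bcor*, which encodes a subunit of a variant PRC1 complex, by 2.08 and 1.60, both from a higher untreated level than *Zic1*. *Zic2* was most like *Otx2* (r = 0.960), *Kis2* (0.916) and *Zeb1* (0.908), and *Zic5* most like *6330410L21Rik* (r = 0.982), *Sall1* (0.971) and *Snrpn* (0.965). *Sall1*, a zinc finger repressor expressed in ESCs, changed by -1.69 and -1.11. These correlations are descriptions over 12 libraries in 4 conditions, with no p-value.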

How the data were processed

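The deposited table holds normalised read counts of 12 cRNA-seq libraries, and 12 matched gDNA-seq libraries have no column in it. The authors removed rDNA reads with Bowtie 2, aligned the others to mm10 and dm6 with STAR and then Bowtie 2, kept unique reads, removed duplicates with Sambamba and counted over gene bodies. The counting strand is not given in the sources used here. The authors' deposited values are a signal, the reads divided by a DESeq2 size factor from *Drosophila* reads corrected by gDNA-seq. The authors' 8 columns of fold changes and adjusted p-values for 4 comparisons were not used.

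Whole reads were recovered by dividing each column by its smallest step, and 100% of values came out whole (tolerance 0.02 of a read). limma 3.58.1 (R 4.3.3) was run on log2(normalised read count + 1), with 1 mean per condition and a trend in the prior variance. Benjamini-Hochberg adjustment was over 16940 transcripts. The interaction was called on the adjusted p alone. The p-values measure the spread between biological replicates of 1 clone per line. edgeR 4.0.16 (added after the values were seen) and DESeq2 1.42.0 were run on the recovered reads with the deposited size factors. Other alternatives were TMM, median-of-ratios, the spike-in totals of the study without gDNA-seq correction, no filter, a pseudocount of 0.1, each line alone, the replicate block and each library left out. Leaving out libraries from the pooled *Zic4* reads was added after the values were seen. The limma script was tested on simulated data. Ratios within a locus were tested with exact permutations.

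Same-numbered libraries of PRC1CPM cells deviated together (r = 0.255, 0.438 and 0.246 for the 3 pairs), so the numbers pair them. In PRC1CKO cells 1 pair was at 0.0988, under the limit of 0.1. The 12 same-numbered pairs across the lines had r from 0.103 to 0.377, so the numbers also tie the comparisons between lines and the interaction. All 36 pairs of unequal number had a mean of -0.102. Removing the condition means makes that value negative whenever same-numbered pairs are positive, so it is no separate baseline. Members, lists and named genes followed a rule, namely the 4 members, the called list members with the largest changes, all neighbours within 1 Mb and the 3 most alike genes of each member. They were chosen with earlier results of these data known. Some genes that the rule names are not reported here. Sequences and exons are from RefSeq on GRCm38.p6, aligned with Biopython 1.88. Summaries, permutations and plots were made in Python 3.11.15 (scipy 1.17.1, matplotlib 3.10.9, pysam 0.24.0, pandas 2.3.3).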

Additional observations from a re-analysis of the deposited data

How the results depend on the processing

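*Zic1*, *Zic4* and *Zic5* kept their direction and their calls after OHT treatment in both lines under all alternatives run. The log2 fold changes ranged from 5.12 to 5.76 and 3.74 to 4.58 for *Zic1*, from 4.62 to 7.27 and 3.93 to 7.63 for *Zic4*, and from -1.79 to -1.55 and -1.56 to -1.13 for *Zic5* (PRC1CKO, then PRC1CPM). *Zic2* was called lower in PRC1CKO cells with TMM (-0.61) and median-of-ratios (-0.61), and in PRC1CPM cells with TMM (-0.74), median-of-ratios (-0.75), DESeq2 (-0.64), no filter and the replicate block (both -0.63). Leaving out 1 library gave -0.74 to -0.53 there. The block left *Zic2* uncalled in PRC1CKO cells (adjusted p = 0.00519 from limma, fold under 1.5), where the numbers pair the libraries less clearly, and it changed no other call of the 4 genes.

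Small differences between the lines changed sign. In untreated cells, *Zic1* was at -0.11 without the gDNA-seq correction and at -0.17 to 0.66 with 1 library left out. *Zic2* was at -0.020 with TMM, -0.021 with median-of-ratios, -0.19 without the gDNA-seq correction and -0.0051 to 0.19 with 1 library left out, and *Zic5* was at -0.10 without that correction. After OHT treatment *Zic2* was at 0.11 without it and at -0.16 to 0.032 with 1 library left out. The interaction of *Zic2* was 0.30 without the correction, and that of *Zic4* was 0.37 with a pseudocount of 0.1, 1.55 in edgeR and 0.49 in DESeq2. The *Zic4* to *Zic1* ratio changed by 1.65 in PRC1CKO and 3.07 in PRC1CPM cells with a pseudocount of 0.1, and by -0.20 to 0.63 in PRC1CPM cells with 1 library left out. In PRC1CPM cells *Dnmt3b* was at -0.094 with TMM, -0.10 with median-of-ratios and -0.16 to 0.27 with 1 library left out, and *2610035F20Rik* was at 0.026 without the gDNA-seq correction and -0.69 to 0.18 with 1 library left out. The cause of these changes was not tested.

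Counts of called transcripts depended more on the setting. Lower transcripts in PRC1CKO cells numbered 524, 1133 with TMM and 823 with the replicate block. In PRC1CPM cells, 2226 were higher, or 3628 without the gDNA-seq correction, and 237 were lower, or 595 with TMM, 75 without that correction and 461 with the block. Between untreated lines 455 were called, 1050 with TMM and 1884 with the block. Between treated lines 249 were called, 429 with DESeq2, 785 with TMM, 524 without the correction and 1363 with the block. The interaction gave 4, 15 with DESeq2, 14 with TMM and 324 with the block, which held none of the 4 members. The median of all genes was 0.12 and 0.10, -0.0019 and -0.0072 with TMM, and -0.029 and 0.40 without the correction. Of 73 calls of the other named genes, 47 were kept in every setting, 26 were lost in at least 1 and none turned direction. Without the filter on low counts, the calls of *Gli3*, *Dnmt3b*, *Nes*, *T*, *Sox17*, *Gm5089* and 1 *Dock9* transcript in PRC1CKO cells and of *Gdf7*, *Cdh2*, *Pax6*, *Neurog2*, *T*, *Sox17*, *Gata3*, *Hand1* and *A330035P11Rik* in PRC1CPM cells were lost. Low read numbers limit the untreated levels of *Zic1* and *Zic4*.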
